A study of Mus musculus with 8 samples.

Results

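This account covers 10 genes of bone morphogenetic protein (BMP) signalling in cells sorted from the vessels of embryonic mouse cortex and lung. They are the ligand genes Bmp2, Bmp4 and Bmp6, the receptor genes Acvrl1 and Bmpr2, and the target genes Id1, Id2, Id3, Smad6 and Smad7. All 10 were measured, among 18193 genes in all. For each gene the probe set used was the one, of those annotated to it alone, that averaged highest across the 8 arrays. The tissues compared were cortex, freed of meninges and choroid plexus, and lung, both from E13.5 embryos of a homozygous Tie2-GFP line. In this line the promoter of Tek (Tie2), an endothelial receptor gene, drives green fluorescent protein, and both tissues were sorted for GFP-positive cells. An array carried material of 1 tissue, pooled over a litter of 10 to 13 embryos. There were 4 cortex arrays and 4 lung arrays, numbered 72, 22, 19 and 18 in each tissue. Because the Tek promoter is also active in some blood cells and macrophages, a GFP gate alone does not hold endothelial cells only.

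BMP ligands bind pairs of type I and type II serine/threonine kinase receptors. The type I receptor then phosphorylates Smad1, Smad5 and Smad9, which enter the nucleus with Smad4 and switch on target genes. Among the best known targets are the Id genes, whose helix-loop-helix proteins capture E proteins and keep them from binding DNA, and Smad6 and Smad7, inhibitory Smads that dampen the same receptors. In endothelium the type I receptor is mainly ALK1, encoded by Acvrl1, which acts with Bmpr2 and the co-receptor endoglin, and mutations in this set of human genes cause hereditary vascular disease.

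The Smad complexes read short DNA motifs. Smad1 and Smad5 favour the GC-rich GGCGCC. Smad4 favours GTCT, which reads AGAC on the other strand. The response element described in the Id1 gene joins the GC-rich motif to the Smad4 motif with a spacer of 5 bases. RefSeq promoter windows (GRCm38.p6) were at hand for 6 of the 10 genes, Bmp4, Bmp6, Bmpr2, Id2, Id3 and Smad6. The 250 bases before the start are shown for the ligand gene with the largest difference and for 3 target genes, 1 that differed between the tissues and 2 that did not pass. For Smad6 the annotated gene begins upstream of the start used, so the end of its stretch, with its GTCT, lies inside the gene. Letters run 5′ to 3′ in the gene's direction, and capitals mark the GC-rich motif and the Smad4 motif on either strand. The stretches lie at chr14:46390670-46390919 (minus strand, Bmp4), chr9:64022060-64022309 (minus strand, Smad6), chr12:25096093-25096342 (minus strand, Id2) and chr4:136143572-136143821 (plus strand, Id3).
Bmp4: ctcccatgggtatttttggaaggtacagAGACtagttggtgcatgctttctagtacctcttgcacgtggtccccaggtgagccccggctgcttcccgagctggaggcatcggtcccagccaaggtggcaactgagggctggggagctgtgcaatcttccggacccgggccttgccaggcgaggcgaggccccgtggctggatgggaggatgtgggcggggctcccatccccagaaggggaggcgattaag
Smad6: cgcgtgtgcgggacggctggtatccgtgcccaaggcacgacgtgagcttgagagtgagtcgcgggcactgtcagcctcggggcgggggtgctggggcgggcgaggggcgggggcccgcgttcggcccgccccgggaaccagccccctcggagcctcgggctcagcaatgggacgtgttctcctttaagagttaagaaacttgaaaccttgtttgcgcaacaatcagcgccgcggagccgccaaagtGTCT
Id2: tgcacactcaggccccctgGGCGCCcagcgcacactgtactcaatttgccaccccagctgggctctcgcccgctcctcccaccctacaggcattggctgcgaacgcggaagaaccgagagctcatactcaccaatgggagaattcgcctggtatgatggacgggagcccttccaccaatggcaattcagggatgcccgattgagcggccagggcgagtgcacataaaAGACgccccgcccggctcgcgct
Id3: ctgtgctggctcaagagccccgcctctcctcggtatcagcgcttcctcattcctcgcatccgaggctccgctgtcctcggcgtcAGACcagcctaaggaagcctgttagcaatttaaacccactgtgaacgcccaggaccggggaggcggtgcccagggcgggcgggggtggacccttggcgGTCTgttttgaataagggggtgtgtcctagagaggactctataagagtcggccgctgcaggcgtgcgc
Of these 4, Id2 held a GGCGCC, which began 231 bases before the start, while 9.59% of the 32851 promoters of the table held one on either strand. Bmpr2, not shown, also held one. The Smad4 motif was found in 5 of the 6 members (all but Bmpr2) and in 82.9% of all promoters. The joined element was found in 0 of the 6 and in 0.07% of all promoters. The E-box CANNTG, the site of the E proteins that Id proteins capture, was found in Bmp4, Bmp6 and Id2 and in 66.2% of all promoters. These are letter matches in a short window and say nothing of binding, since response elements can lie farther away.

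The values were log2 expression values made by the submitters with RMA with array medians between 6.59 and 6.72. Precision is limited by having 4 arrays a tissue. For 4 samples, numbers 19 and 18 of each tissue, a description field names the other tissue, and the arrays were grouped by title. The mean of 20 neural markers ran from 10.78 to 11.32 on the arrays titled cortex and from 6.03 to 6.35 on those titled lung. All 20 were called higher in cortex, so the cells sorted from cortex held neural transcripts beside endothelial ones. Endothelial identity was present in both tissues, with Tek at 11.70 ± 0.84 in cortex and 12.93 ± 0.28 in lung and Cdh5, the cadherin of endothelial junctions, at 8.39 ± 1.09 in cortex and 9.65 ± 1.06 in lung (mean log2 value ± SD, n = 4 each). The mean of 26 pan-endothelial markers was 11.35 on cortex 19, 11.23 on cortex 22, 9.94 on cortex 72 and 9.53 on cortex 18, against 11.41 to 11.87 on the lung arrays. Of these 26, 7 were called lower in cortex and 0 higher, beside 7.71% and 10.4% of all genes. Differences (cortex minus lung) were below 0 for 25 of the 26. The mean of 11 mesenchyme markers lay between 5.86 and 6.48 in cortex and between 7.53 and 9.94 in lung, and 8 of them were called lower in cortex. In such sorted pools, fewer cells of a type and less RNA per cell cannot be told apart. Every difference below was measured beside these shifts, whose part in it was not tested unless stated.

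The 3 BMP ligand genes, the type I receptor gene Acvrl1 and the inhibitory Smad gene Smad6 were lower in cortex, and the Id genes, Bmpr2 and Smad7 did not pass. Thus 5 of the 10 genes were called lower in cortex and 0 higher (limma, Benjamini-Hochberg adjusted p under 0.05 over all genes), and these 5 were also the genes with no overlap between cortex and lung arrays. By unadjusted limma p-values Id3 (0.0156) and Smad7 (0.0168) would also have passed at 0.05, both lower in cortex, and again 0 higher. Over all genes 18.1% were called, 10.4% higher and 7.71% lower in cortex. Groups without overlap were found for 24.5% of all genes, with cortex lower for 12.0%. The median difference of the 10 was -1.28 log2 units (cortex minus lung), beside -0.09 over all genes and -1.08 over the 26 pan-endothelial markers.

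**Figure D1:**
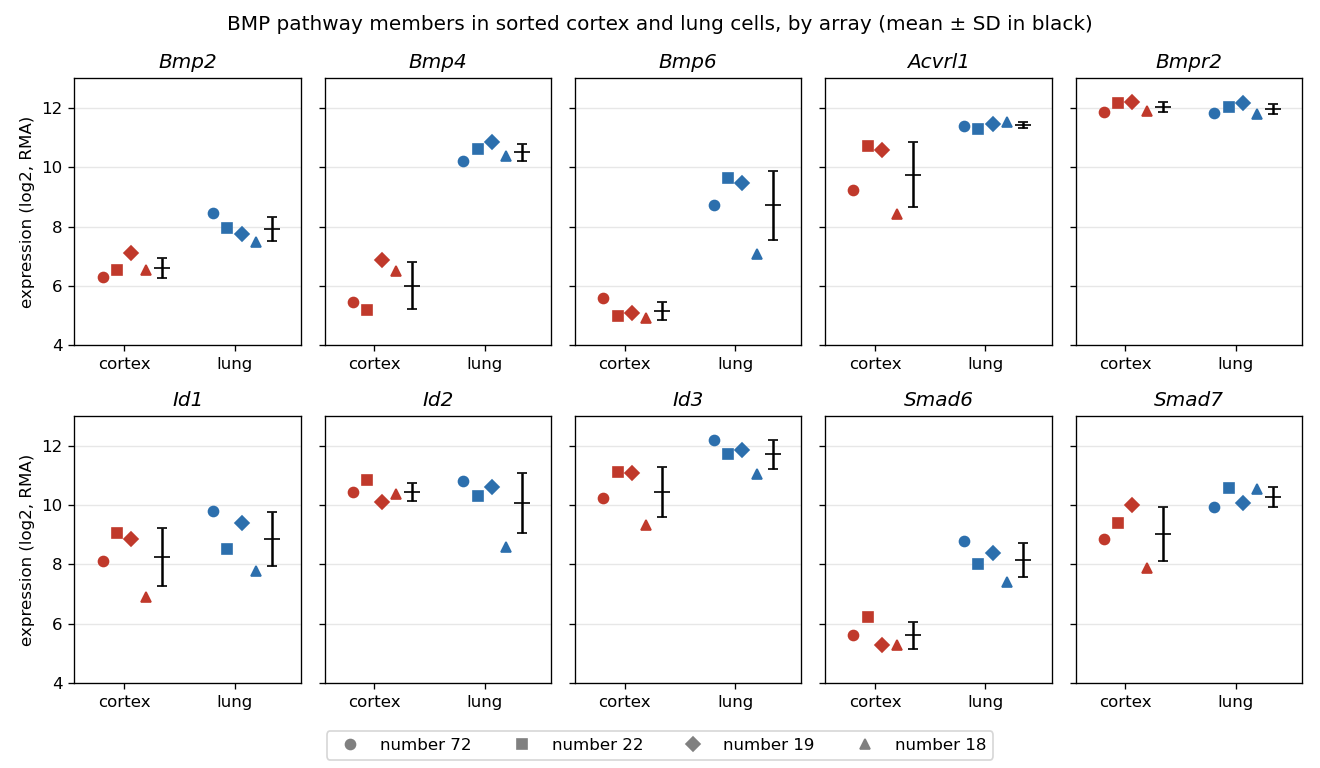
Log2 expression (RMA) of the 10 genes on each array, cortex left of lung, with symbols for the sample number and the mean ± SD (n = 4) in black. The groups stand apart for Bmp2, Bmp4, Bmp6, Acvrl1 and Smad6 and overlap for the other 5 genes.

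Bmp4, a ligand that patterns mesoderm and the early lung, showed the largest difference of the 10. It lay at 5.48, 5.21, 6.87 and 6.51 on cortex arrays 72, 22, 19 and 18, against 10.20, 10.63, 10.84 and 10.38 on lung arrays 72, 22, 19 and 18. Every lung array thus lay more than 3 log2 units above the highest cortex array, while the cortex arrays were spread more widely than the lung arrays. The difference was -4.49 ± 0.37 log2 units (SE), 22.5-fold lower in cortex (limma adjusted p = 7.93e-05).

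Bmp6, a ligand that endothelial cells of several organs make, followed with 5.61, 5.004, 5.08 and 4.94 on cortex 72, 22, 19 and 18, against 8.72, 9.63, 9.46 and 7.08 on lung 72, 22, 19 and 18. Cortex values were close together, and lung 18 stood below the other lung arrays. Bmp6 fell 11.8-fold in cortex (-3.57 ± 0.52 log2 units, limma adjusted p = 0.00181), and -4.11 log2 units without lung 18.

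Bmp2, a close relative of Bmp4, gave the smallest difference of the 3 ligands. Its values were 6.31, 6.52, 7.10 and 6.55 on cortex 72, 22, 19 and 18, against 8.45, 7.95, 7.74 and 7.49 on lung 72, 22, 19 and 18. The groups did not overlap, with cortex 19 and lung 18 nearest to each other. Bmp2 was 2.44-fold lower in cortex (-1.29 ± 0.25 log2 units, limma adjusted p = 0.00751). RMA compresses differences near the lower end of its scale, and most cortex values of these ligands lay below the array medians, so the folds may understate the differences.

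The receptors parted. Acvrl1, which encodes the endothelial type I receptor ALK1, lay at 9.24, 10.72, 10.58 and 8.44 on cortex 72, 22, 19 and 18, against 11.38, 11.30, 11.46 and 11.54 on lung 72, 22, 19 and 18. The lung arrays varied with an SD of 0.10 log2 units, whereas the cortex arrays spread over more than 2 log2 units. Acvrl1 fell 3.20-fold in cortex (-1.68 ± 0.47 log2 units, limma adjusted p = 0.0411). This call ended without cortex 72 (-1.51 log2 units, limma adjusted p = 0.108) or cortex 18 (-1.24, 0.0554), and without lung 72 (-1.69, 0.0722), lung 22 (-1.72, 0.0786), lung 19 (-1.66, 0.0903) or lung 18 (-1.64, 0.0857). A second Acvrl1 probe set gave -1.45 log2 units (limma adjusted p = 0.0748 over all probe sets).

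Bmpr2, the type II receptor that pairs with ALK1 and with the other BMP type I receptors, was close to level between the tissues. It lay at 11.87, 12.16, 12.19 and 11.89 on cortex 72, 22, 19 and 18, against 11.85, 12.02, 12.18 and 11.79 on lung 72, 22, 19 and 18. All 8 values lay between 11.79 and 12.19, and the groups overlapped. The difference was 0.07 log2 units, with a 95% confidence interval of -0.27 to 0.41 (limma adjusted p = 0.775). A second Bmpr2 probe set gave 0.03 log2 units, and the other averaged only 5.12 over the 8 arrays.

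Of the inhibitory Smads, Smad6, which blocks mainly the BMP type I receptors, differed most. It lay at 5.62, 6.24, 5.27 and 5.30 on cortex 72, 22, 19 and 18, against 8.79, 8.01, 8.38 and 7.42 on lung 72, 22, 19 and 18. The lowest lung array was above the highest cortex array by more than 1 log2 unit. Smad6 fell 5.83-fold in cortex (-2.54 ± 0.33 log2 units, limma adjusted p = 0.000911).

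Smad7, which restrains both BMP and TGF-beta receptors, lay at 8.86, 9.40, 10.02 and 7.87 on cortex 72, 22, 19 and 18, against 9.93, 10.58, 10.06 and 10.54 on lung 72, 22, 19 and 18. Cortex 19 lay above the lowest lung array, so the groups overlapped. Smad7 averaged 9.04 ± 0.91 in cortex and 10.28 ± 0.33 in lung without passing (-1.24 log2 units, interval -2.20 to -0.29, limma adjusted p = 0.0764). Leaving out cortex 19 gave -1.57 log2 units and a call (limma adjusted p = 0.0247). The probe set used carries the manufacturer's _x_ mark for probes that may bind other transcripts, and the second Smad7 probe set gave -0.998 log2 units (limma adjusted p = 0.354 over all probe sets).

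None of the 3 Id genes, the classical readout of BMP signalling, passed the threshold. Id1 lay at 8.12, 9.08, 8.87 and 6.92 on cortex 72, 22, 19 and 18, against 9.82, 8.53, 9.38 and 7.77 on lung 72, 22, 19 and 18. Both groups spread over more than 2 log2 units and overlapped, with number 18 lowest in each tissue. The difference was -0.63 log2 units with an interval of -1.92 to 0.67 (limma adjusted p = 0.486), which includes a level 2-fold lower in cortex.

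Id2 lay at 10.45, 10.86, 10.09 and 10.37 on cortex 72, 22, 19 and 18, against 10.83, 10.30, 10.60 and 8.59 on lung 72, 22, 19 and 18. Lung 18 stood below all other arrays, which otherwise overlapped. The difference of 0.36 log2 units (interval -0.68 to 1.41, limma adjusted p = 0.617) became -0.13 without lung 18. A second Id2 probe set gave -0.11 log2 units, and the other averaged only 4.16 over the 8 arrays, near the low end of the scale.

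Id3 lay at 10.26, 11.13, 11.08 and 9.34 on cortex 72, 22, 19 and 18, against 12.21, 11.72, 11.88 and 11.06 on lung 72, 22, 19 and 18. Only lung 18 lay within the range of the cortex arrays. Id3 averaged 10.45 ± 0.84 in cortex and 11.72 ± 0.48 in lung, a difference of -1.26 log2 units with an interval of -2.22 to -0.31 that did not pass (limma adjusted p = 0.0724). It passed with array weights (-1.30 log2 units, limma adjusted p = 0.0312). It also passed narrowly without both arrays numbered 18, a setting chosen after the data were seen (-1.11 log2 units, 0.0499).

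Within cortex, 4 of the genes ordered the arrays much as the pan-endothelial markers did. Acvrl1, Id1, Id3 and Smad7 each had their highest cortex values on arrays 22 and 19, which had the higher pan-endothelial means, their next on cortex 72 and their lowest on cortex 18. This cortex order was not particular to endothelial markers. The modulator gene Fstl1 shared it, as did the target gene Msx1 and the epithelial marker Epcam, both named after their values were seen. Bmp4 did not follow this order, with cortex 19 and 18 above cortex 72 and 22, and neither did Smad6, whose values on cortex 19 and 18 were nearly equal. Within lung, the mean of the mesenchyme markers was 9.94 on array 72, 8.94 on 19, 8.17 on 22 and 7.53 on 18. Smad6, Id1, Id2, Id3 and, outside the 10, Tmem100 ordered the lung arrays in the same way, while Bmp4 had its lowest lung value on array 72. The order was not particular to mesenchyme markers. Cdh5, Id4, Bmpr1a and Tgfbr3 shared it, as did the means of 10 mural cell markers and of 8 epithelial markers. The 4 points per tissue are too few for a correlation, and the part of these markers in the differences was not tested.

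**Figure D2:**
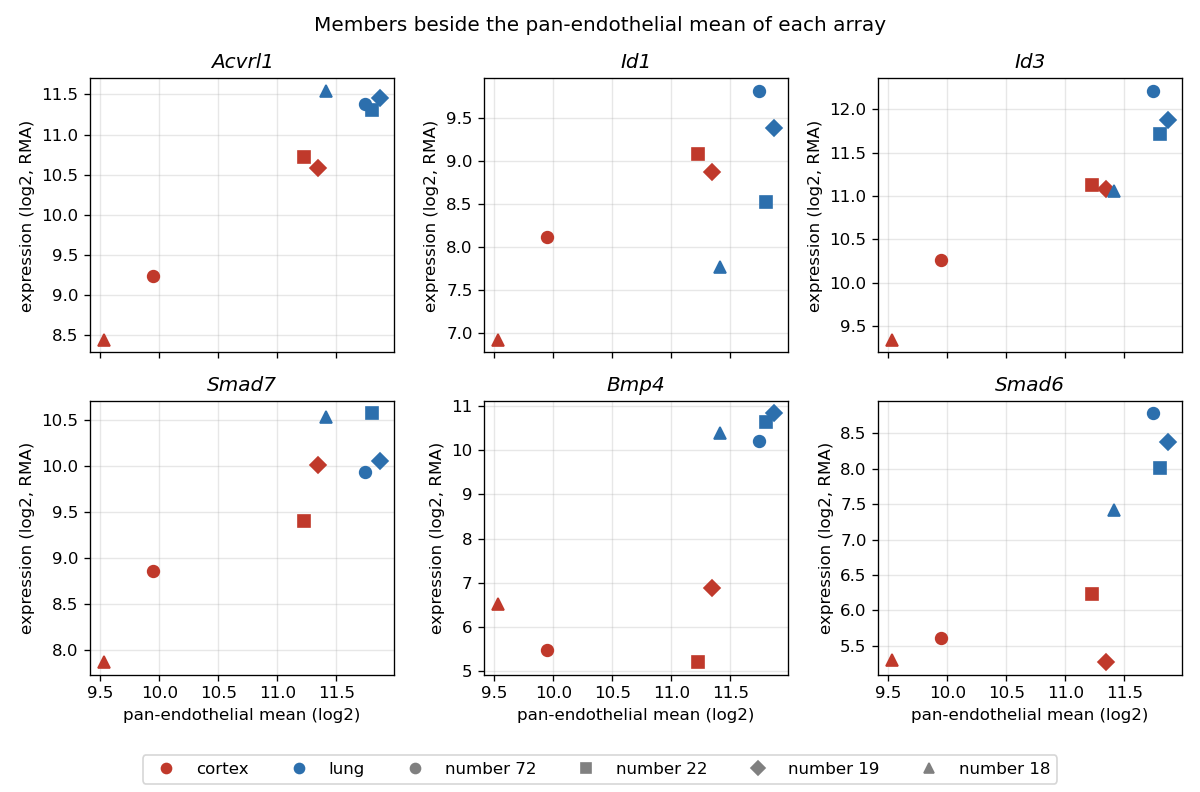
Log2 expression of 6 of the genes (vertical axis) against the mean of 26 pan-endothelial markers on the same array (horizontal axis, log2), with cortex in red, lung in blue and symbols for the sample number. Acvrl1, Id1, Id3 and Smad7 are lowest on cortex 18, the array with the lowest pan-endothelial mean (9.53), while Bmp4 and Smad6 are low on all 4 cortex arrays.

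With the arrays set to a common pan-endothelial mean, Bmp4 and Bmp6 stayed lower in cortex, at -3.30 log2 units (limma adjusted p = 1.56e-07) and -2.37 log2 units (0.000373). Smad6 was at -1.35 log2 units and just missed the threshold (0.0549). Bmp2 (-0.09 log2 units, 95% interval -1.20 to 1.02) and Acvrl1 (-0.48, -1.59 to 0.63) did not pass. Nor did Id3 (-0.07, -1.18 to 1.05) and Smad7 (-0.05, -1.16 to 1.07). Id1 turned to 0.57 log2 units, also without passing. Id2 passed as higher in cortex (1.56 log2 units, limma adjusted p = 0.0268), and Bmpr2 lay at 1.27 (0.0697). This shift was set by the mean of pan-endothelial markers whose unshifted differences ran from -3.14 log2 units (Clec14a) to 0.11 (Flt1). It moved the median of all genes to 1.11 log2 units. Calls over all genes went to 5414 higher and 154 lower in cortex, against 1888 and 1403 unshifted. The shift adds the same amount to every gene's difference, so it leaves each gene's place relative to that median as it was. Here limma gave all genes 1 SE, 0.57, so these calls take no account of how much a single gene varied.

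**Figure D3:**
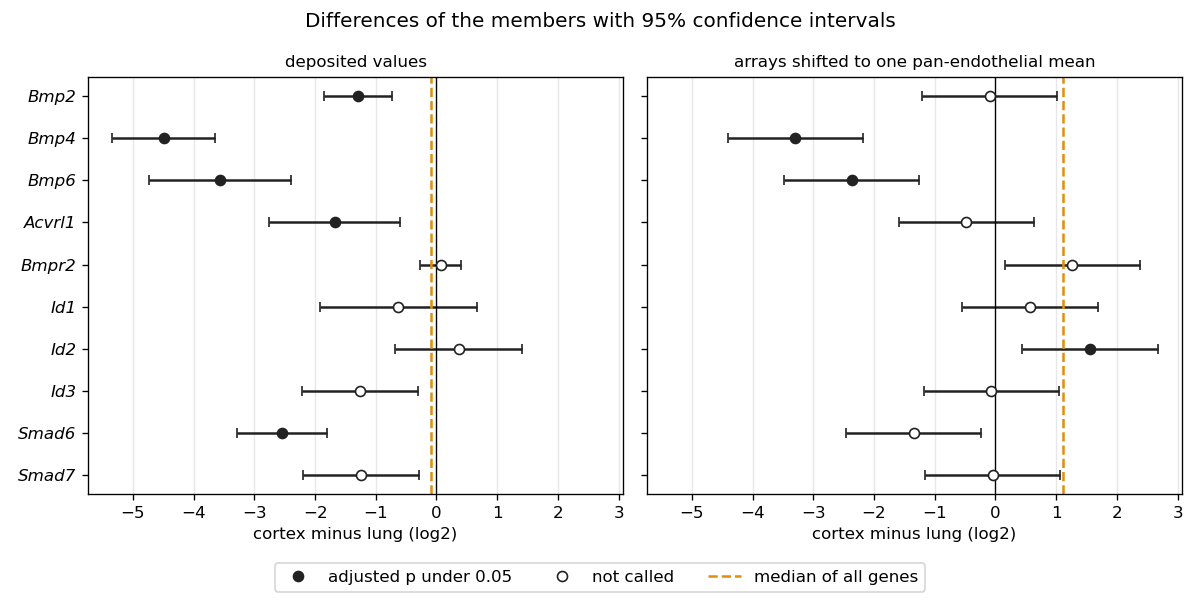
Cortex minus lung differences of the 10 genes (log2) with 95% confidence intervals, from the deposited values (left) and after shifting the arrays to one pan-endothelial mean (right), with filled points called and a dashed line at the median of all genes. Bmp4 and Bmp6 are called lower in cortex on both sides, and Acvrl1, Bmp2 and Smad6 on the left only.

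The other genes of the pathway were read from 6 lists that hold 62 measured genes, the 10 included. Of the 62, 8 were called higher in cortex and 10 lower, beside 10.4% and 7.71% of all genes, and their median difference was -0.14 log2 units, beside -0.09 over all genes. The 8 became 5 without any 1 of cortex 72, 22 or 18 or lung 19, and 4 without lung 22. After pan-endothelial scaling 19 were called higher and 4 lower, where 5414 and 154 of all 18193 genes were. Among 11 BMP and GDF ligands, the 3 members were the only calls, all lower in cortex (list median -0.39). Bmp7, an epithelial and neural ligand, was at 6.28 ± 0.26 in cortex and 6.32 ± 0.65 in lung (limma adjusted p = 0.945). Bmp5 was at 5.37 ± 0.29 and 6.10 ± 1.28 (0.406), with lung 72 highest at 7.96. Gdf2, which encodes BMP9, the circulating high-affinity ligand of ALK1 that is made mainly in liver, was at 5.77 ± 0.24 in cortex and 6.16 ± 0.33 in lung (0.234).

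Among 12 receptors and co-receptors, 4 rose in cortex and 2 fell, beside 10.4% called higher and 7.71% lower over all genes. The list median was 0.26 log2 units. The co-receptors of the repulsive guidance molecule family, Rgma and Rgmb, were 5.92-fold and 3.90-fold higher in cortex (limma adjusted p = 0.000338 and 0.00054). Rgma lay at 7.83 ± 0.51 in cortex and 5.27 ± 0.32 in lung, and Rgmb at 10.84 ± 0.32 and 8.88 ± 0.37. For Rgmb the probe set used gave 1.96 log2 units, and the mean of its 6 probe sets gave 1.18 (limma adjusted p = 0.00715). The other 2 that rose, named after their values were seen, were the type I receptor Bmpr1b (2.50-fold, 0.0305) and the type II receptor Acvr2b (3.18-fold, 0.00377). These rises were measured beside the neural markers, of which 20 of 20 were called higher in cortex, and their cells of origin were not tested. Bmpr1a, the broadly expressed type I receptor, averaged 10.22 ± 0.11 in cortex against 8.64 ± 1.40 in lung and missed the threshold (0.107). Its call appeared when lung 18 was left out (0.91 log2 units, limma adjusted p = 0.0409). Scaling to the pan-endothelial genes also gave a call (2.78 log2 units, limma adjusted p = 1.76e-05).

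Besides Acvrl1, the gene lower in cortex was Tgfbr3, which encodes the co-receptor betaglycan. It lay at 6.98 ± 0.89 in cortex and 10.21 ± 0.91 in lung (9.37-fold, limma adjusted p = 0.00388), and it stayed called after pan-endothelial scaling (-2.03 log2 units). The probe set used gave -3.23 log2 units, and the mean of the 2 Tgfbr3 probe sets gave -2.31 (limma adjusted p = 0.00394). Endoglin, encoded by Eng, which sits with ALK1 on endothelium, was at 10.93, 11.84, 11.99 and 10.23 on cortex 72, 22, 19 and 18, against 12.27, 12.39, 12.35 and 12.29 on lung 72, 22, 19 and 18. Its groups did not overlap, yet it missed the threshold (-1.08 log2 units, limma adjusted p = 0.0753), passed without cortex 19 (-1.33 log2 units, 0.0362), and came to 0.12 after pan-endothelial scaling. Eng is itself among the 26 markers that set this scaling, so its value there is partly built in. Acvr1, the type I receptor ALK2, was at 8.29 ± 0.69 in cortex and 8.63 ± 0.57 in lung (0.585).

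The signal-carrying Smads were near level. Smad1 averaged 12.31 ± 0.24 in cortex and 12.30 ± 0.18 in lung, a difference of 0.01 log2 units and an interval of -0.37 to 0.39 (limma adjusted p = 0.975). Smad5 was at 11.17 ± 0.34 in cortex and 10.96 ± 0.47 in lung (0.619), and the shared partner Smad4 at 11.87 ± 0.12 and 11.70 ± 0.11 (0.40). Of the 8 Smads and Smad ubiquitin ligases, Smad6 was the only call, beside 7.71% of all genes called lower in cortex. Smad7 joined it without cortex 19. After pan-endothelial scaling 0 were called lower and 1 higher, Smad5 (1.41 log2 units, limma adjusted p = 0.0457, where the median of all genes was 1.11).

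**Figure D4:**
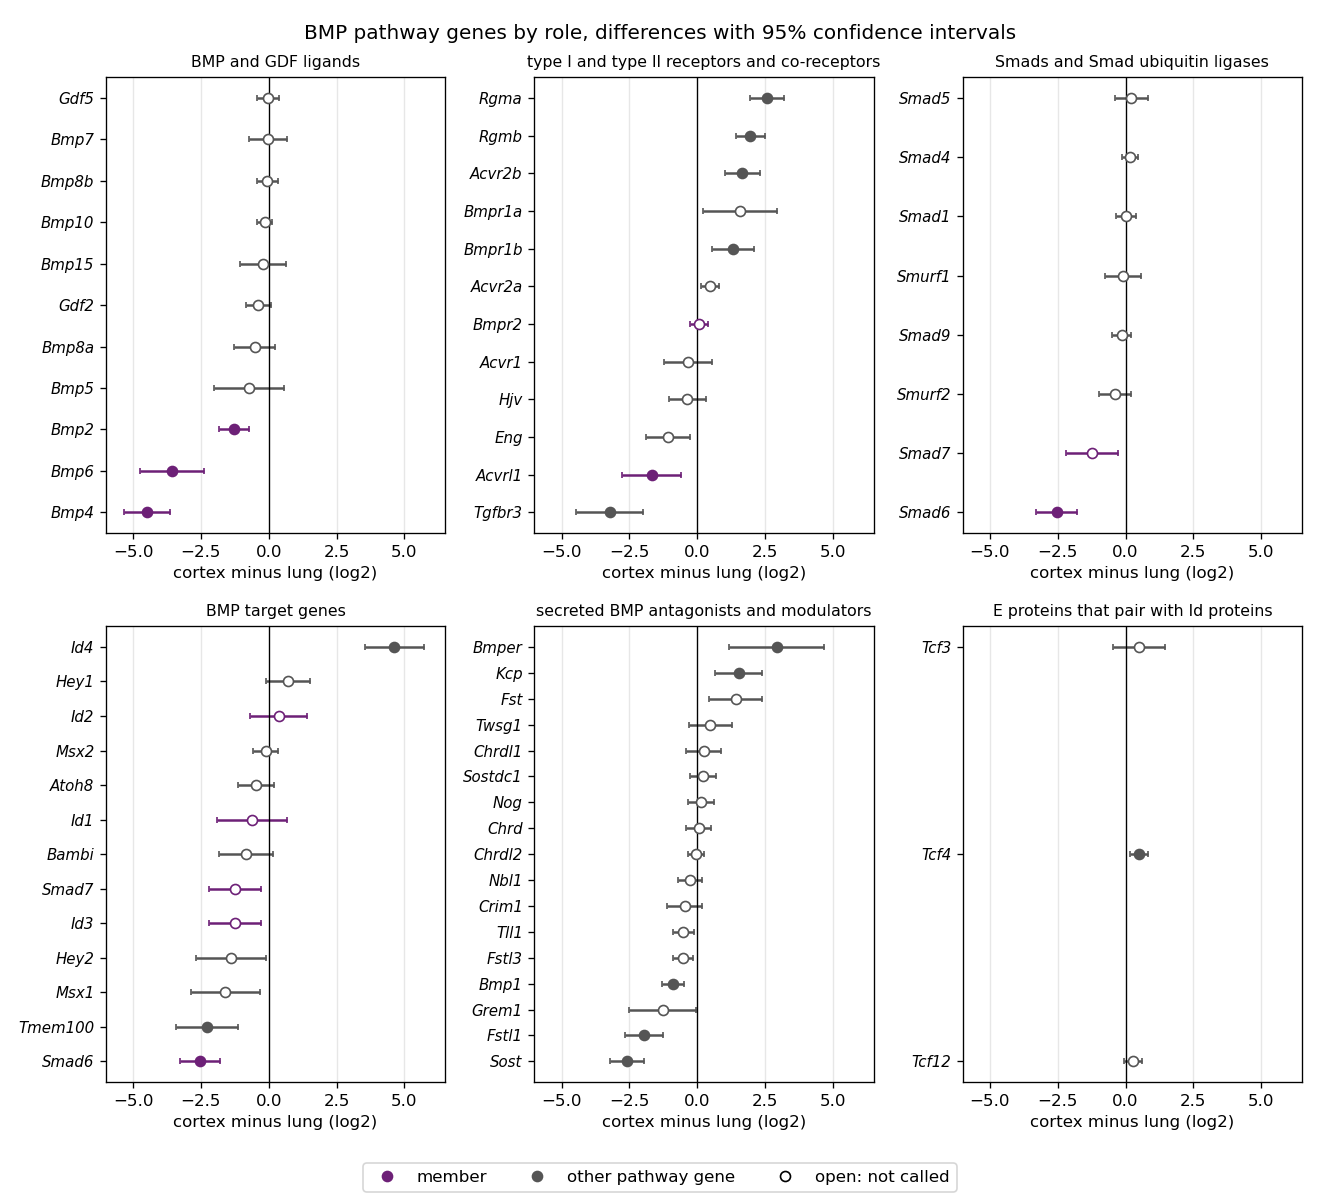
Cortex minus lung differences (log2) with 95% confidence intervals for 6 lists of BMP pathway genes, with the 10 described genes in purple, other genes in grey, and open points not called. Ligand calls lie on the lung side alone, receptors spread to both sides, and Smad1, Smad4 and Smad5 lie near 0.

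Among 13 BMP target genes, 1 rose in cortex and 2 fell, beside 10.4% called higher and 7.71% lower over all genes. The list median was -0.83 log2 units. The gene that rose was Id4, the Id family member of neural progenitors, at 12.30, 12.54, 12.28 and 12.84 on cortex 72, 22, 19 and 18, against 8.64, 7.90, 8.59 and 6.31 on lung 72, 22, 19 and 18. The tissues were far apart on every array, 24.8-fold (limma adjusted p = 0.000285). Its cortex values did not follow the pan-endothelial means, with cortex 18, the lowest in endothelial markers, highest in Id4. Tmem100, a target of ALK1 in endothelium, was 4.89-fold lower in cortex, at 5.77, 5.82, 5.77 and 5.05 on cortex 72, 22, 19 and 18, against 8.93, 7.89, 8.40 and 6.34 on lung 72, 22, 19 and 18 (limma adjusted p = 0.0148). That call ended after pan-endothelial scaling (-1.09 log2 units, 0.103). Bambi, a pseudoreceptor that BMP signalling induces, was at 9.67 ± 0.99 in cortex and 10.50 ± 0.22 in lung (0.235). The number of target genes lower in cortex was 4 without cortex 19, 5 with array weights and 0 after pan-endothelial scaling, which gave 3 higher.

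Of 17 secreted antagonists and modulators, 2 rose in cortex and 3 fell (median -0.04 log2 units). Over all genes 10.4% were called higher and 7.71% lower in cortex. Bmper, a secreted modulator of BMP4 in vessels, was 7.64-fold higher in cortex, at 10.14, 9.16, 8.63 and 9.55 on cortex 72, 22, 19 and 18, against 8.83, 5.24, 6.44 and 5.23 on lung 72, 22, 19 and 18 (limma adjusted p = 0.0303). Lung 72 reached into the cortex range, and the call ended without any 1 of cortex 72, 22 or 18 or lung 22, 19 or 18 (2.53 to 3.005 log2 units, limma adjusted p = 0.0587 to 0.085). The other gene that rose, named after its values were seen, was Kcp (2.89-fold, 0.0254). The count of 2 held without lung 72 alone, and was 0 without lung 22 and 1 without any other array. Sost, which encodes the Wnt and BMP antagonist sclerostin, fell by 2.59 on the log2 scale in cortex, at 5.01 ± 0.32 against 7.60 ± 0.52 in lung (0.00033). Fstl1, a follistatin-like glycoprotein, was 3.89-fold lower, at 10.79 ± 0.56 in cortex and 12.75 ± 0.41 in lung (0.00282), and the protease gene Bmp1, also named after its values were seen, 1.85-fold (0.0103). Both Sost and Fstl1 were high in lung beside the mesenchyme markers, and their cells of origin were not tested. Noggin, the classical BMP antagonist encoded by Nog, was low in both tissues, at 4.34 ± 0.23 in cortex and 4.20 ± 0.36 in lung (0.674).

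Of the 3 E proteins that Id proteins capture, Tcf4 was 1.40-fold higher in cortex, at 13.38 ± 0.14 against 12.90 ± 0.18 in lung (limma adjusted p = 0.0478). The arrays did not overlap, but the call ended without any 1 of the 8 arrays (0.41 to 0.55 log2 units, limma adjusted p = 0.0564 to 0.122) and with each array's median set to 0 (0.0766).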

How the data were processed

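RNA of sorted cells (15 to 30 ng) was linearly amplified, labelled with biotin and put on Affymetrix Mouse Genome arrays, per the labels' protocols. The deposited values are log2 expression levels of probe sets, which the authors made with RMA and the affy package, per the submitters' processing notes. RMA subtracts background, gives all arrays the same quantiles and combines the probes of a set, so every difference is relative to the rest of the array. Control probe sets (64) were left out. Of 45037 others, 34945 named 1 gene, 932 several and 9160 none here, by the platform annotation.

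The tissues were compared in R 4.3.3 by limma 3.58.1 (lmFit, eBayes, tissue as the only factor), two-sided, with Benjamini-Hochberg adjustment over 18193 genes and calls at an adjusted p under 0.05. A p in parentheses without a name is this adjusted p. Litters are the replicates, per the labels. The members, lists, promoter motifs and alternatives were chosen with earlier results of these data known. Named were the 10 members, the 3 largest calls of each list, and 17 genes listed in advance. Listed genes that the annotation did not name are not analysed here. The fit was tested on simulated data. Promoter sequences are RefSeq's.

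Alternatives were a block for the sample number, each array left out, other scalings, filters, weights and probe sets. Whether the numbers pair the arrays was checked by correlating same-numbered deviations from the tissue means. This gave 0.33, -0.16, 0.0089 and 0.31 for numbers 72, 22, 19 and 18. The lung array of the same number correlated best for cortex 72 and 18, but not for cortex 22 and 19. The check did not settle the pairing, and the main fit did not take the numbers as pairs.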

Additional observations from a re-analysis of the deposited data

Results flagged for a closer look

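In 3 of 66 groups of 4 arrays (33 named genes in 2 tissues), the extreme array stood apart from the others by more than Dixon's 95% limit for the gap over the range, where chance flags about 5% of groups. None was of the 10 members. Tmem100 on cortex 18 was 5.05, against 5.77 to 5.82 on the other cortex arrays. Fstl1 on lung 18 was 12.14, against 12.88 to 13.03 on the other lung arrays. Pecam1, the endothelial adhesion molecule, was 8.92 on lung 18, against 10.82 to 11.05 on the other lung arrays.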

How the results depend on the processing

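Bmp4 and Bmp6 kept their direction and call under every alternative that tested them, with differences of -4.78 to -3.30 and -4.11 to -2.37 log2 units, Bmp6 not being tested without dim probe sets. With pan-endothelial scaling the calls were 5568 over all genes (5414 higher and 154 lower in cortex), 3 of the members (1 higher, 2 lower), and 19 higher and 4 lower among pathway genes. Without dim probe sets (Bmp2, Bmp6 and Smad6 among those left out) 2 members were called, both lower, and 11 pathway genes, 5 of them lower. Over all probe sets there were 5475 calls, 3278 higher and 2197 lower. Array weights gave 2233 genes lower, and leaving out both arrays numbered 18, chosen after the data were seen, gave 929 lower and 5 pathway genes higher. Leaving out 1 array gave 2393 to 3081 calls over all genes (1393 to 1966 higher, 956 to 1274 lower), 4 to 6 members, all lower, and 13 to 20 pathway genes (4 to 7 higher, 9 to 14 lower). The sample number as a replicate block gave 3143 calls over all genes and 5 members. In it the call of Acvrl1 ended (limma adjusted p = 0.0587), Id3 passed (0.0339), 4 target genes were lower, and the numbers were not shown to pair arrays. Signs turned, without a call, under pan-endothelial scaling for Id1 (0.57), Acvr1 (0.86), Bambi (0.36), Bmp5 (0.46), Bmp7 (1.16), Eng (0.12) and Gdf2 (0.81). They turned with array weights for Bmpr2 (-0.025), Id2 (-0.012) and Smad5 (-0.095), with median centring for Bmpr2 (-0.0068) and Smad1 (-0.067), and without both arrays numbered 18 for Id2 (-0.11) and Smad5 (-0.018). Leaving out 1 array moved Bmp7 between -0.24 and 0.25, Id2 between -0.13 and 0.61, Nog between -0.032 and 0.24 and Smad1 between -0.068 and 0.12. Of 167 values of the members under alternatives, 144 kept direction and side of the threshold, 12 lost and 5 gained a call and 6 changed sign. The cause of these changes was not tested. RMA values carry no detection call, so low values near the floor of the scale bound the precision of Bmp6 and Smad6 in cortex.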

Other observations

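The sorted cells also held transcripts of blood-derived cells, which the Tek promoter can label. The mean of 8 macrophage and microglia markers was 8.81, 8.43, 9.11 and 6.07 on cortex 72, 22, 19 and 18, against 6.63, 5.70, 6.19 and 5.59 on lung 72, 22, 19 and 18. Of these markers, 2 were called higher in cortex, Csf1r and Cx3cr1, both named after their values were seen, beside 10.4% of all genes. The mean of 7 erythroid markers was 7.33 ± 0.47 in cortex and 6.37 ± 0.22 in lung (log2, SD, n = 4 each). Of these, 2 were called higher in cortex, the embryonic globins Hba-x and Hbb-y, beside 10.4% of all genes. The other 5 were not called, and 1 of them, Gata1, was lower in cortex (4.73, against 4.96 in lung).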
